A study of Homo sapiens with 27 samples.

Results

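Melanoma cells of 9 groups were followed for the BCL2 family genes that set the balance between survival and death. The genes were taken by name, 10 of the 58721 in the count table, and comprise the BH3-only genes BCL2L11, BMF, PMAIP1, HRK, BBC3 and BIK and the pro-survival genes MCL1, BCL2, BCL2L1 and BCL2A1. They were chosen with earlier results of these data known, so shares of all genes beside their counts are for scale and test nothing. All 10 passed the filter on low counts, which kept 25199 genes. The cells were A375, an established line from a human melanoma whose BRAF kinase is mutant and active, kept in DMEM with 10% FBS, and polyA RNA of 27 libraries was sequenced. Each group had 3 libraries. TADA2B knockout cells made with guide 1, TADA2B knockout cells made with guide 2 and control cells, which carried a guide against GFP and a WT genotype label, were each given 20 nM trametinib, 1 µM vemurafenib or DMSO, the solvent, for 24 h. TADA2B is an adaptor of the histone acetyltransferase module of the SAGA coactivator complex. Trametinib inhibits the kinase MEK, and vemurafenib inhibits mutant BRAF, which signals to MEK. The labels do not say whether a knockout population was a pool or a single clone, nor whether replicate libraries stem from separate cultures, so p-values measure only the spread between libraries, which may be technical. The labels name 1 control guide, so other differences between that population and the knockout populations cannot be told apart from the knockout.

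Pro-survival proteins of the family sit on the outer membrane of mitochondria and hold BAX and BAK1, which perforate it, in check. BH3-only proteins bind into a groove of the pro-survival proteins, and some of them, such as BIM (from BCL2L11) and PUMA (from BBC3), can also activate BAX and BAK1 directly. In melanoma with mutant BRAF, signalling through ERK is known to keep BIM and BMF low, and BCL2A1 is a known pro-survival gene of the melanocytic lineage.

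The letters before the start of each gene were read from RefSeq on GRCh38.p14, 250 bases per start, because several factors known to act on these genes have short motifs. The table held 8 of the 10 genes, with 1 start each except for BMF and BCL2L1, which had 2. A RefSeq start can lie inside the gene span from GENCODE that is given further below. All windows but that of HRK overlapped the span of their gene. Those of BCL2L11, BCL2A1 and BCL2, and 1 of the 2 windows each of BMF and BCL2L1, lay wholly within it. Motifs were searched on both strands: GTAAACA (FOXO factors), CACGTG and CATGTG (E-boxes, bound by MITF and MYC among others), TGANTCA (AP-1), TGACGTCA (CRE, bound by ATF factors) and CCGGAAG (ETS factors). Shown are BMF, PMAIP1, HRK and BCL2A1, which the drugs changed most in control cells, and BCL2L11 and BBC3, whose windows held a motif. The sequences run 5′ to 3′ in the sense of the gene, capitals mark motif matches, and BMF is shown for its first listed start.
BCL2L11, chr2:111120664-111120913, plus strand: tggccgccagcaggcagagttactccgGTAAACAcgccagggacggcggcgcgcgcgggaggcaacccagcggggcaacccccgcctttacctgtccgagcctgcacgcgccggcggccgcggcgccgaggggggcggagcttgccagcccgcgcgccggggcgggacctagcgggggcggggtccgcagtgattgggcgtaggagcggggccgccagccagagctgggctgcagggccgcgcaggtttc
BMF, chr15:40108880-40109129, minus strand: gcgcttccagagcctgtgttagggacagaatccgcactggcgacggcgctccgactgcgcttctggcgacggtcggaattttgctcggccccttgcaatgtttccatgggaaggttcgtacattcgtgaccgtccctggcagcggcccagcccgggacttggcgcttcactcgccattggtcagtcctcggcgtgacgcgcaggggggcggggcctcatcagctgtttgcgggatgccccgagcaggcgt
PMAIP1, chr18:59899746-59899995, plus strand: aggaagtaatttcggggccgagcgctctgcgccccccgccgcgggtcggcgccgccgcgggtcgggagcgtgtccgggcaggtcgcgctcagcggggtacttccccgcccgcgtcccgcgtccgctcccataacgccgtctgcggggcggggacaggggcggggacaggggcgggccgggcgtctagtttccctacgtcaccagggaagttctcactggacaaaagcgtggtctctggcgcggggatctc
HRK, chr12:116881442-116881691, minus strand: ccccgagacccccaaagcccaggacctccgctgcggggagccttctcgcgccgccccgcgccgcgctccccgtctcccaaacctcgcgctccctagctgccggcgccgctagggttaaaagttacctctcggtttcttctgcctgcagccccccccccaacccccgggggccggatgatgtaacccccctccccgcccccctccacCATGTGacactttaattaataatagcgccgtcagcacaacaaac
BBC3, chr19:47232668-47232917, minus strand: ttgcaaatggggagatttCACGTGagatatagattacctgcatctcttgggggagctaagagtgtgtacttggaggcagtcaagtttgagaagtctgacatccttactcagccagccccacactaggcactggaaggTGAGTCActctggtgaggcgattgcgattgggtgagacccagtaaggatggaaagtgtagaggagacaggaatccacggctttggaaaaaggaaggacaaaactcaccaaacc
BCL2A1, chr15:79971197-79971446, minus strand: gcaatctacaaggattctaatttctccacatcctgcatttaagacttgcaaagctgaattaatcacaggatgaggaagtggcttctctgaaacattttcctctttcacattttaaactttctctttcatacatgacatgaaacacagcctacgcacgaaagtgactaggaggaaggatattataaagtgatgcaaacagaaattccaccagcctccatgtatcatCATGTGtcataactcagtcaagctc
BCL2L11 held GTAAACA at 223 bases before the start, a motif of 2.98% of 35116 windows of the same length. HRK and BCL2A1 held CATGTG at 44 and 25 bases before the start, and 9.42% of windows hold it. BBC3 held CACGTG at 232 bases (6.34% of windows) and TGANTCA at 113 bases (6.57% of windows), and these did not overlap. The windows of BMF, PMAIP1, BCL2 and BCL2L1 held none of the 6 motifs. No window of these genes held TGACGTCA (1.65% of windows) or CCGGAAG (8.52% of windows).

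Library totals lay between 67502300 and 92513726 counts, and the biological coefficient of variation common to all genes was 4.02%. Markers of the melanocyte lineage, all 8 of which were tested, summed to between 344 and 2369 CPM (counts scaled to a fixed library size) in a library. The summed leukocyte markers (3 of 5 tested) reached at most 3.23 CPM, keratinocyte markers 15.5 CPM, endothelial markers 6.64 CPM and fibroblast markers 110 CPM, and no marker was at 0 in every library. The part of these markers in the results below was not tested. TADA2B, the targeted gene (chr4:7041899-7057952), had between 27.3 and 35.7 CPM in knockout libraries and between 30.2 and 45.2 CPM in control libraries. In DMSO it was lower with guide 2 (-0.12 ± 0.043, adjusted p = 0.0126) and not called with guide 1 (-0.035 ± 0.043, adjusted p = 0.522). Under drug it was lower with both guides, at -0.24 ± 0.041 with guide 1 and -0.49 ± 0.042 with guide 2 in trametinib and at -0.43 ± 0.042 and -0.62 ± 0.042 in vemurafenib (adjusted p between 9.29e-18 and 2.06e-06). Editing need not remove a transcript, and 188 exon bases are shared with CCDC96 on the other strand, so the level of TADA2B does not test the genotype labels.

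Changes were tested with edgeR's quasi-likelihood test, with Benjamini-Hochberg adjustment across the tested genes, and a gene was called at an adjusted p under 0.05. Fold changes are on the log2 scale with the standard error unless a fold is named. Levels are CPM, which compares samples but not genes. CPM is a share of the sequenced RNA, so changes are relative to the other genes, and a change in total RNA per cell is not seen. Counts are per gene and do not separate splice forms, such as those of BIM or of BCL2L1.

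In control cells both drugs raised BMF, HRK, BCL2A1, BCL2L11 and BBC3 and lowered PMAIP1, BCL2 and MCL1. BMF rose 29.2-fold with trametinib and 24.2-fold with vemurafenib, and PMAIP1 fell 16.4-fold and 10.0-fold. With trametinib 5 of the 10 genes rose, where 36.4% of all genes tested rose, and 4 fell, where 32.5% fell. That made 9 called genes, where 69% of all genes were called. With vemurafenib 5 rose (35.7% of all genes) and 5 fell (31.6%), so 10 were called, where 67.3% of all genes were. Of the 10 genes, 7 were called and changed at least 2-fold with trametinib, where 29.6% of all genes did, and 7 with vemurafenib, where 27.5% did. The median change of the 10 genes was 0.46 with trametinib, where that of all genes was 0.059, and 0.42 with vemurafenib, where that of all genes was 0.060. By class, the medians with trametinib were 1.185 for BH3-only and -0.453 for pro-survival genes, and with vemurafenib 1.183 and -0.467.

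**Figure D1:**
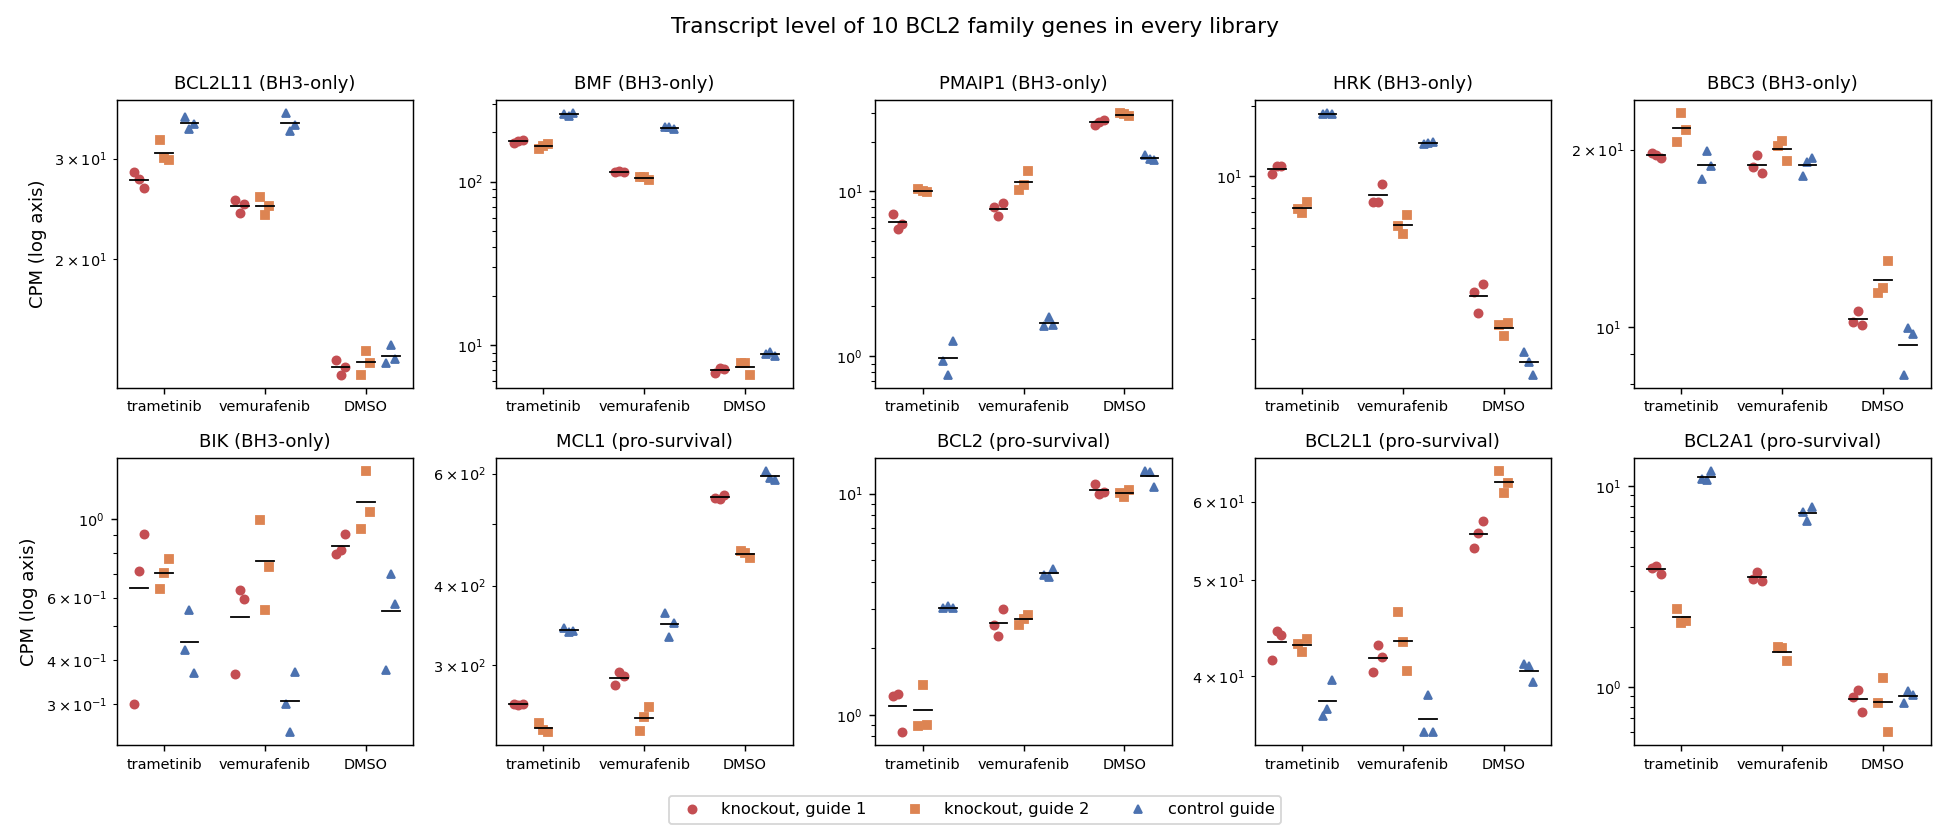
Level of each gene in CPM (log axis, with its own range in each panel) in all 27 libraries, by treatment along the x axis. Each point is a library, coloured by cell population, and black bars are group means: BMF was at most 9.05 CPM in any DMSO library and at least 103 CPM in any drug-treated one.

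BMF (hg38, chr15:40087890-40108892) encodes a BH3-only protein that healthy cells hold at the actin cytoskeleton through a dynein light chain. In control cells it had 259, 253 and 262 CPM with trametinib and 216, 217 and 209 CPM with vemurafenib, against 8.82, 9.05 and 8.60 CPM with DMSO. The 3 groups lay apart, trametinib highest and DMSO far below. The changes were 4.87 ± 0.042 (adjusted p = 2.59e-54) with trametinib and 4.60 ± 0.042 (adjusted p = 3.25e-53) with vemurafenib.

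HRK (chr12:116856144-116881441) encodes harakiri, a BH3-only protein best known from dying neurons. It had 18.4, 18.5 and 18.3 CPM with trametinib and 13.6, 13.8 and 13.9 CPM with vemurafenib, against 1.76, 1.60 and 1.41 CPM with DMSO. Trametinib libraries were again above vemurafenib libraries, and both far above DMSO. The rises were 11.6-fold (3.53 ± 0.096, adjusted p = 6.58e-34) and 8.66-fold (3.11 ± 0.098, adjusted p = 2.56e-31).

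BCL2L11 (chr2:111119378-111168447), the gene of BIM, had 35.5, 33.8 and 34.6 CPM with trametinib and 36.0, 33.5 and 34.3 CPM with vemurafenib, against 13.1, 14.1 and 13.3 CPM with DMSO. The drug groups lay over each other and above DMSO, by 1.35 ± 0.050 (adjusted p = 1.42e-28) with trametinib and 1.36 ± 0.050 (adjusted p = 1.62e-28) with vemurafenib. MIR4435-2HG, a non-coding gene on the other strand that shares 727 exon bases with BCL2L11, averaged 3.87 ± 0.13 CPM with trametinib and 4.65 ± 0.11 CPM with vemurafenib, against 22.2 ± 1.4 CPM with DMSO (SD, n = 3 each). It moved opposite to BCL2L11. The strand setting of the counting is not given in the sources used here, so reads from the shared bases cannot be told apart.

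BBC3 (chr19:47220822-47232766), the gene of PUMA, had 17.9, 19.9 and 18.8 CPM with trametinib and 18.0, 19.0 and 19.4 CPM with vemurafenib, against 8.30, 9.95 and 9.72 CPM with DMSO. Both drugs put every library above every DMSO library, and the drug groups overlapped. The changes were 1.02 ± 0.063 (adjusted p = 1.23e-19) with trametinib and 1.01 ± 0.063 (adjusted p = 1.62e-19) with vemurafenib.

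PMAIP1 (chr18:59899948-59904306) encodes NOXA, a BH3-only protein that binds MCL1 and BCL2A1 and promotes the turnover of MCL1. It had 0.929, 0.771 and 1.24 CPM with trametinib and 1.52, 1.74 and 1.53 CPM with vemurafenib, against 16.5, 15.8 and 15.5 CPM with DMSO. Drug-treated libraries were all far below DMSO, the opposite of BMF, HRK, BCL2L11 and BBC3. The changes were -4.04 ± 0.11 (adjusted p = 2.67e-33) with trametinib and -3.32 ± 0.10 (adjusted p = 3.09e-31) with vemurafenib.

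BIK (chr22:43110748-43129712), a BH3-only gene whose protein resides mainly at the endoplasmic reticulum, had few reads, between 18 and 112 in a library. It had 0.428, 0.554 and 0.367 CPM with trametinib and 0.301, 0.250 and 0.370 CPM with vemurafenib, against 0.375, 0.700 and 0.574 CPM with DMSO. Trametinib libraries overlapped with DMSO and the gene was not called (-0.29 ± 0.30, adjusted p = 0.404). Vemurafenib libraries lay just below DMSO (-0.84 ± 0.32, adjusted p = 0.0186), a call that limma voom did not make (-0.80, adjusted p = 0.0602) and that was lost without DMSO replicate 2 (-0.62, adjusted p = 0.131) or vemurafenib replicate 2 (-0.72, adjusted p = 0.0730).

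Among the pro-survival genes, MCL1 (chr1:150574551-150579738), whose protein is short-lived, had 343, 338 and 339.5 CPM with trametinib and 362, 332 and 349 CPM with vemurafenib, against 606, 590.0 and 585 CPM with DMSO. All drug-treated libraries were below all DMSO libraries, by 1.74-fold with trametinib (-0.80 ± 0.030, adjusted p = 1.54e-28) and 1.70-fold with vemurafenib (-0.77 ± 0.030, adjusted p = 9.50e-28). BCL2 (chr18:63123346-63320128), the founding member of the family, had 3.03, 3.11 and 3.03 CPM with trametinib and 4.31, 4.19 and 4.59 CPM with vemurafenib, against 12.7, 12.5 and 10.7 CPM with DMSO. It fell 3.91-fold with trametinib (-1.97 ± 0.10, adjusted p = 3.94e-22) and 2.74-fold with vemurafenib (-1.45 ± 0.10, adjusted p = 8.84e-18), and no groups overlapped.

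BCL2A1 (chr15:79960889-79971446), which MITF is known to activate in melanocytes, went the other way, with 10.8, 10.7 and 11.9 CPM with trametinib and 7.41, 6.74 and 7.87 CPM with vemurafenib, against 0.832, 0.960 and 0.919 CPM with DMSO. It was 12.3-fold higher with trametinib (3.62 ± 0.13, adjusted p = 2.00e-29) and 8.11-fold higher with vemurafenib (3.02 ± 0.13, adjusted p = 7.82e-26), without overlap. BCL2L1 (chr20:31664452-31723989), the gene of BCL-XL, had 36.4, 37.1 and 39.6 CPM with trametinib and 35.1, 38.3 and 35.1 CPM with vemurafenib, against 41.1, 40.9 and 39.5 CPM with DMSO. Its changes were small, -0.10 ± 0.044 (adjusted p = 0.0349) with trametinib, where a trametinib library overlapped with DMSO, and -0.16 ± 0.044 (adjusted p = 0.00114) with vemurafenib. The trametinib call was lost with no low-count filter (adjusted p = 0.0864), with a filter of 1 CPM in 3 libraries (adjusted p = 0.159), and without replicate 1 or 2 of DMSO or of trametinib (adjusted p between 0.0900 and 0.156).

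The drugs were set against each other in control cells, each at its own dose. Both drug responses rest on the same DMSO libraries, and the test here does not use them. With vemurafenib, relative to trametinib, 2 of the 10 genes were higher (8.78% of all genes tested) and 3 lower (7.56%), so 5 were called, where 16.3% of all genes were. PMAIP1 (0.71 ± 0.15, adjusted p = 3.14e-04) and BCL2 (0.51 ± 0.11, adjusted p = 4.84e-04) were higher with vemurafenib. BMF (-0.27 ± 0.032, adjusted p = 4.31e-09), HRK (-0.42 ± 0.074, adjusted p = 2.31e-05) and BCL2A1 (-0.60 ± 0.099, adjusted p = 5.31e-06) were lower with vemurafenib. Each of these 5 stood nearer to its DMSO level with vemurafenib. BCL2L11 (0.0010 ± 0.046), BBC3 (-0.0035 ± 0.059), MCL1 (0.033 ± 0.030), BCL2L1 (-0.060 ± 0.044) and BIK (-0.55 ± 0.32) were not called.

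In knockout cells, averaged over both guides, each gene had the same sign of drug response as in control cells. With trametinib 5 rose (37.2% of all genes) and 5 fell (34.3%), so 10 were called, where 71.4% of genes were. With vemurafenib 5 rose (36%) and 5 fell (33.1%), so 10 were called, where 69.1% were. BMF rose 23.6-fold with trametinib and 15.2-fold with vemurafenib, and BCL2 fell 9.46-fold and 3.84-fold. Called and changed at least 2-fold were 6 genes with trametinib (21.9% of all genes) and 5 with vemurafenib (19.1%). The trametinib call of BIK (-0.53 ± 0.19, adjusted p = 0.0110) was lost without guide 1 replicate 1 (-0.36, adjusted p = 0.0639).

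Between the drugs, knockout cells had 3 of the 10 genes higher with vemurafenib than with trametinib (10.9% of all genes) and 4 lower (8.29%), so 7 were called, where 19.2% were. BCL2 (1.30 ± 0.096, adjusted p = 1.43e-15), PMAIP1 (0.23 ± 0.058, adjusted p = 0.00318) and MCL1 (0.095 ± 0.021, adjusted p = 4.81e-04) were higher with vemurafenib. BMF (-0.63 ± 0.023, adjusted p = 5.35e-27), BCL2L11 (-0.23 ± 0.033, adjusted p = 3.08e-07), HRK (-0.31 ± 0.058, adjusted p = 3.28e-05) and BCL2A1 (-0.35 ± 0.086, adjusted p = 0.00166) were lower.

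Without drug, knockout cells had more BCL2L1, PMAIP1, HRK, BBC3 and BIK and less MCL1, BMF and BCL2 transcript than control cells. In DMSO 5 of the 10 genes were higher (29.3% of all genes tested) and 3 lower (28.6%), so 8 were called, where 57.9% of all genes were. None of the 10 was called and changed at least 2-fold, where 12.6% of all genes were. The median change of the 10 genes was 0.10, where that of all genes was 0.0010. By class, the median was 0.484 for BH3-only and -0.146 for pro-survival genes. PMAIP1 had 25.4, 26.3 and 27.1 CPM with guide 1 and 29.8, 29.4 and 28.7 CPM with guide 2, against 16.5, 15.8 and 15.5 CPM in control cells. Both knockout populations were above control, 1.74-fold on average (0.80 ± 0.066, adjusted p = 1.32e-14). HRK had 3.18, 2.59 and 3.42 CPM with guide 1 and 2.29, 2.06 and 2.34 CPM with guide 2, against 1.76, 1.60 and 1.41 CPM in control cells. Both were above control and guide 1 was the higher (1.64-fold on average, 0.72 ± 0.10, adjusted p = 4.58e-08).

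BCL2L1 had 53.8, 55.7 and 57.3 CPM with guide 1 and 64.4, 61.2 and 62.6 CPM with guide 2, against 41.1, 40.9 and 39.5 CPM in control cells in DMSO. Both knockout populations were above control, 1.46-fold on average (0.54 ± 0.038, adjusted p = 3.36e-17). ABALON, a non-coding gene that shares 1424 exon bases with BCL2L1 on the other strand, averaged 1.40 ± 0.13 CPM with guide 1 and 1.68 ± 0.079 CPM with guide 2, against 0.943 ± 0.042 CPM in control cells (SD, n = 3 each), and its part in the difference was not tested. BBC3 was higher (0.25 ± 0.057, adjusted p = 1.78e-04), called with guide 2 (0.36 ± 0.065, adjusted p = 5.26e-06) and not with guide 1 (0.14 ± 0.066, adjusted p = 0.0661). BIK was higher (0.82 ± 0.25, adjusted p = 0.00405), called with guide 2 (adjusted p = 0.00138) and not with guide 1 (adjusted p = 0.0653), and its joint call was lost without control replicate 1 (0.60, adjusted p = 0.0598).

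MCL1 had 549, 547 and 555 CPM with guide 1 and 452, 450.4 and 442 CPM with guide 2, against 606, 590.0 and 585 CPM in control cells in DMSO. Guide 2 was the lowest, guide 1 lay between it and control, and the joint change was -0.26 ± 0.025 (adjusted p = 1.63e-12). BMF had 6.73, 7.30 and 7.17 CPM with guide 1 and 7.74, 7.73 and 6.61 CPM with guide 2, against 8.82, 9.05 and 8.60 CPM in control cells. It was lower in both knockout populations (-0.29 ± 0.046, adjusted p = 3.29e-07). BCL2 was lower (-0.23 ± 0.081, adjusted p = 0.0147), a call lost without control replicate 1 (-0.18, adjusted p = 0.0970) or 2 (-0.20, adjusted p = 0.0833), and guide 1 libraries overlapped with control. BCL2L11 (-0.052 ± 0.046, adjusted p = 0.343) and BCL2A1 (-0.065 ± 0.14, adjusted p = 0.729) were not called.

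**Figure D2:**
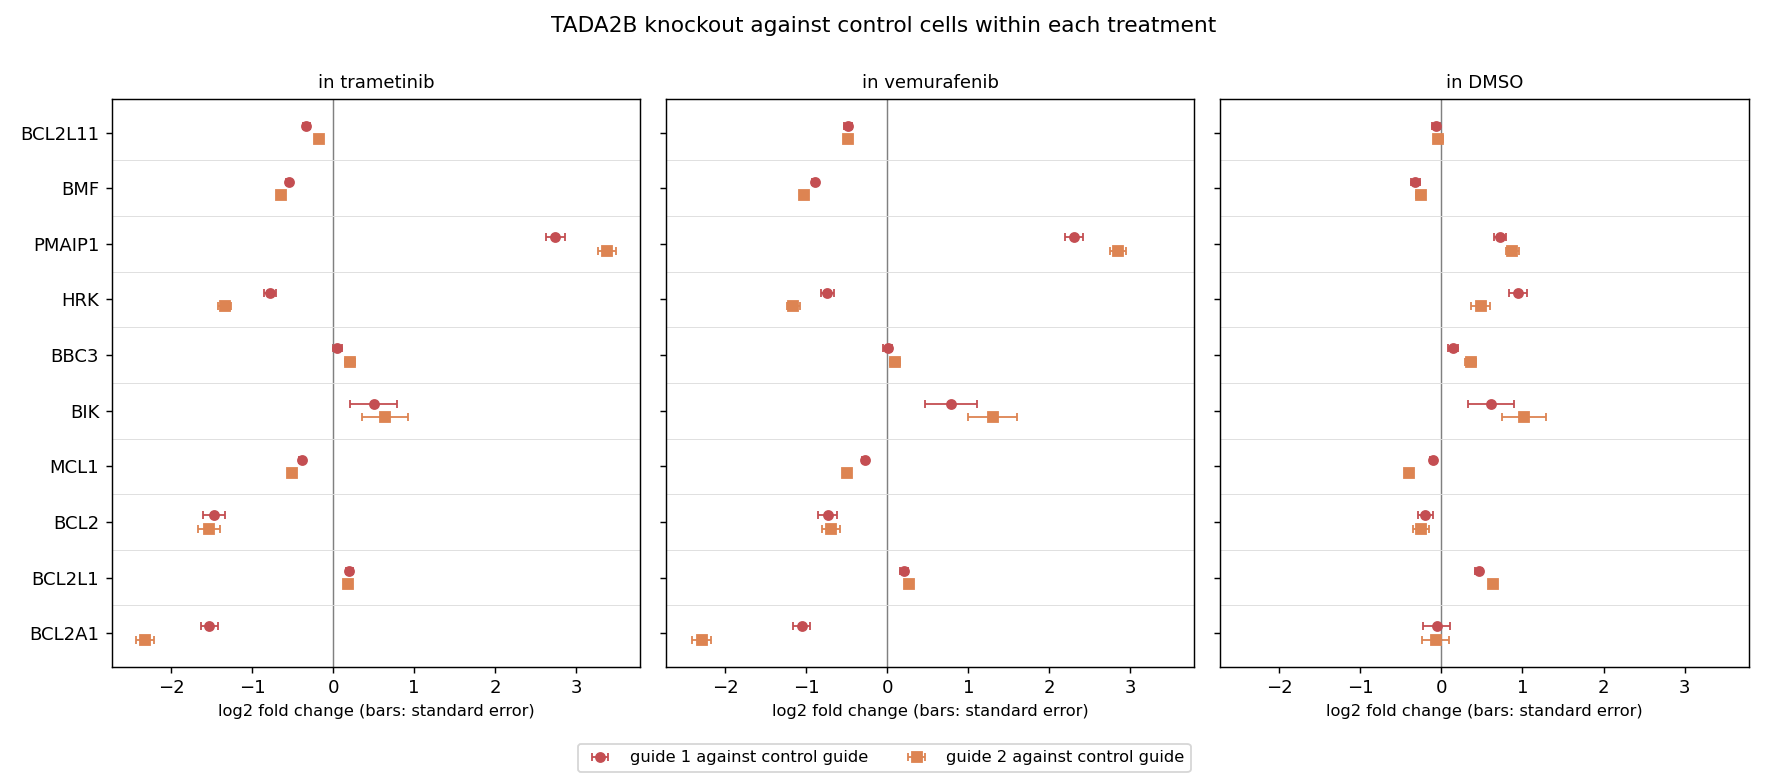
Log2 fold change of each gene in TADA2B knockout cells of guide 1 or guide 2 against control cells (points, with standard errors as bars) within trametinib, vemurafenib and DMSO, on a shared x axis. Averaged over guides, HRK was at -1.06 in trametinib, -0.95 in vemurafenib and 0.72 in DMSO, and PMAIP1 was above 0 in all 3.

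Under the drugs, PMAIP1 and BCL2L1 were higher in knockout than in control cells, and BMF, BCL2L11, HRK, MCL1, BCL2 and BCL2A1 were lower. In trametinib 3 of the 10 genes were higher (27.1% of all genes tested) and 6 lower (28.8%), so 9 were called, where 55.9% were. In vemurafenib 3 were higher (27.3%) and 6 lower (28.3%), so 9 were called, where 55.6% were. Called and changed at least 2-fold were 4 in trametinib (13.2% of all genes) and 3 in vemurafenib (13.3%). The median change of the 10 genes was -0.35 in trametinib, where that of all genes was -0.019, and -0.43 in vemurafenib, where that of all genes was -0.015. By class, the medians in trametinib were -0.06 for BH3-only and -0.975 for pro-survival genes, and in vemurafenib -0.217 and -0.55.

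PMAIP1 had 7.29, 5.90 and 6.36 CPM with guide 1 and 10.3, 10.0 and 9.96 CPM with guide 2, against 0.929, 0.771 and 1.24 CPM in control cells in trametinib. In vemurafenib it had 8.00, 7.11 and 8.46 CPM with guide 1 and 10.1, 10.9 and 13.3 CPM with guide 2, against 1.52, 1.74 and 1.53 CPM in control cells. Every knockout library was above every control library of the same drug, and guide 2 was above guide 1. The fold was 8.35 in trametinib (3.06 ± 0.11, adjusted p = 1.90e-28) and 5.96 in vemurafenib (2.57 ± 0.096, adjusted p = 3.36e-27).

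BMF had 171, 178 and 179.7 CPM with guide 1 and 159, 166 and 169.8 CPM with guide 2, against 259, 253 and 262 CPM in control cells in trametinib (-0.60 ± 0.028, adjusted p = 3.79e-24). With vemurafenib, BMF had 114, 116 and 114 CPM with guide 1 and 106, 107 and 103 CPM with guide 2, against 216, 217 and 209 CPM in control cells (-0.96 ± 0.028, adjusted p = 2.25e-32). Control was highest and guide 2 lowest in both drugs, without overlap. BCL2L11 had 28.4, 27.6 and 26.6 CPM with guide 1 and 32.3, 30.1 and 29.9 CPM with guide 2, against 35.5, 33.8 and 34.6 CPM in control cells in trametinib (-0.25 ± 0.040, adjusted p = 4.65e-07). In vemurafenib it had 25.3, 24.1 and 24.9 CPM with guide 1 and 25.7, 23.9 and 24.7 CPM with guide 2, against 36.0, 33.5 and 34.3 CPM in control cells (-0.48 ± 0.040, adjusted p = 1.07e-14). Knockout libraries were below control libraries in both drugs. MIR4435-2HG, whose exons overlap those of BCL2L11, averaged 4.49 ± 0.14 CPM with guide 1 and 5.51 ± 0.62 CPM with guide 2 in vemurafenib, against 4.65 ± 0.11 CPM in control cells. In trametinib it averaged 3.207 ± 0.365 and 3.825 ± 0.381 CPM, against 3.87 ± 0.13 CPM. Without drug it averaged 15.89 ± 0.482 and 16.05 ± 0.477 CPM, against 22.24 ± 1.45 CPM (SD, n = 3 each).

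HRK had 10.2, 11.0 and 11.0 CPM with guide 1 and 7.22, 6.94 and 7.73 CPM with guide 2, against 18.4, 18.5 and 18.3 CPM in control cells in trametinib (-1.06 ± 0.064, adjusted p = 1.40e-19). With vemurafenib, HRK had 7.74, 7.70 and 9.26 CPM with guide 1 and 6.11, 5.62 and 6.79 CPM with guide 2, against 13.6, 13.8 and 13.9 CPM in control cells (-0.95 ± 0.067, adjusted p = 3.01e-17). Control was highest and guide 2 lowest in both drugs, whereas control was lowest in DMSO. BBC3 was close to control, at 0.13 ± 0.051 (adjusted p = 0.0252) in trametinib and 0.048 ± 0.051 (adjusted p = 0.442) in vemurafenib. Its trametinib call came with guide 2 (0.21 ± 0.058, adjusted p = 0.00220) and not with guide 1 (0.054 ± 0.058, adjusted p = 0.472), and was lost without control replicate 1 (0.093, adjusted p = 0.187) or 3 (0.13, adjusted p = 0.0656) or guide 2 replicate 2 (0.11, adjusted p = 0.0751).

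BIK was higher in vemurafenib (1.04 ± 0.28, adjusted p = 0.00118) and not called in trametinib (0.57 ± 0.25, adjusted p = 0.0531). For trametinib it was called with DESeq2's size factors (adjusted p = 0.0481), DESeq2's Wald test (adjusted p = 0.0493), the filter of 1 CPM in 3 libraries (adjusted p = 0.0460), and without control replicate 2, guide 1 replicate 1 or guide 2 replicate 1 (adjusted p between 0.00626 and 0.0493).

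Of the pro-survival genes, MCL1 had 261, 259.8 and 261 CPM with guide 1 and 243, 238 and 235 CPM with guide 2, against 343, 338 and 339.5 CPM in control cells in trametinib (-0.45 ± 0.025, adjusted p = 9.58e-21). In vemurafenib it had 279, 293 and 288 CPM with guide 1 and 236, 248 and 258 CPM with guide 2, against 362, 332 and 349 CPM in control cells (-0.39 ± 0.025, adjusted p = 2.65e-18). Every knockout library was below every control library. BCL2 had 1.21, 1.25 and 0.835 CPM with guide 1 and 0.895, 1.37 and 0.901 CPM with guide 2, against 3.03, 3.11 and 3.03 CPM in control cells in trametinib (-1.50 ± 0.11, adjusted p = 1.81e-16). With vemurafenib, BCL2 had 2.53, 2.28 and 3.02 CPM with guide 1 and 2.54, 2.72 and 2.84 CPM with guide 2, against 4.31, 4.19 and 4.59 CPM in control cells (-0.71 ± 0.096, adjusted p = 1.10e-08). The guides overlapped with each other and lay below control in both drugs.

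BCL2A1 had 3.92, 3.99 and 3.68 CPM with guide 1 and 2.45, 2.10 and 2.14 CPM with guide 2, against 10.8, 10.7 and 11.9 CPM in control cells in trametinib, 3.80-fold lower in knockout cells (-1.93 ± 0.087, adjusted p = 1.56e-24). In vemurafenib it had 3.46, 3.76 and 3.38 CPM with guide 1 and 1.58, 1.56 and 1.34 CPM with guide 2, against 7.41, 6.74 and 7.87 CPM in control cells, 3.19-fold lower (-1.67 ± 0.093, adjusted p = 4.67e-21). The guides stood apart from each other as well as from control, guide 2 lowest. BCL2L1 had 41.5, 44.4 and 44.0 CPM with guide 1 and 43.1, 42.3 and 43.6 CPM with guide 2, against 36.4, 37.1 and 39.6 CPM in control cells in trametinib (0.20 ± 0.038, adjusted p = 2.09e-05). With vemurafenib, BCL2L1 had 40.3, 43.0 and 41.8 CPM with guide 1 and 46.5, 43.3 and 40.5 CPM with guide 2, against 35.1, 38.3 and 35.1 CPM in control cells (0.24 ± 0.039, adjusted p = 8.14e-07). It was the pro-survival gene with knockout libraries above control libraries in both drugs and in DMSO.

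**Figure D3:**
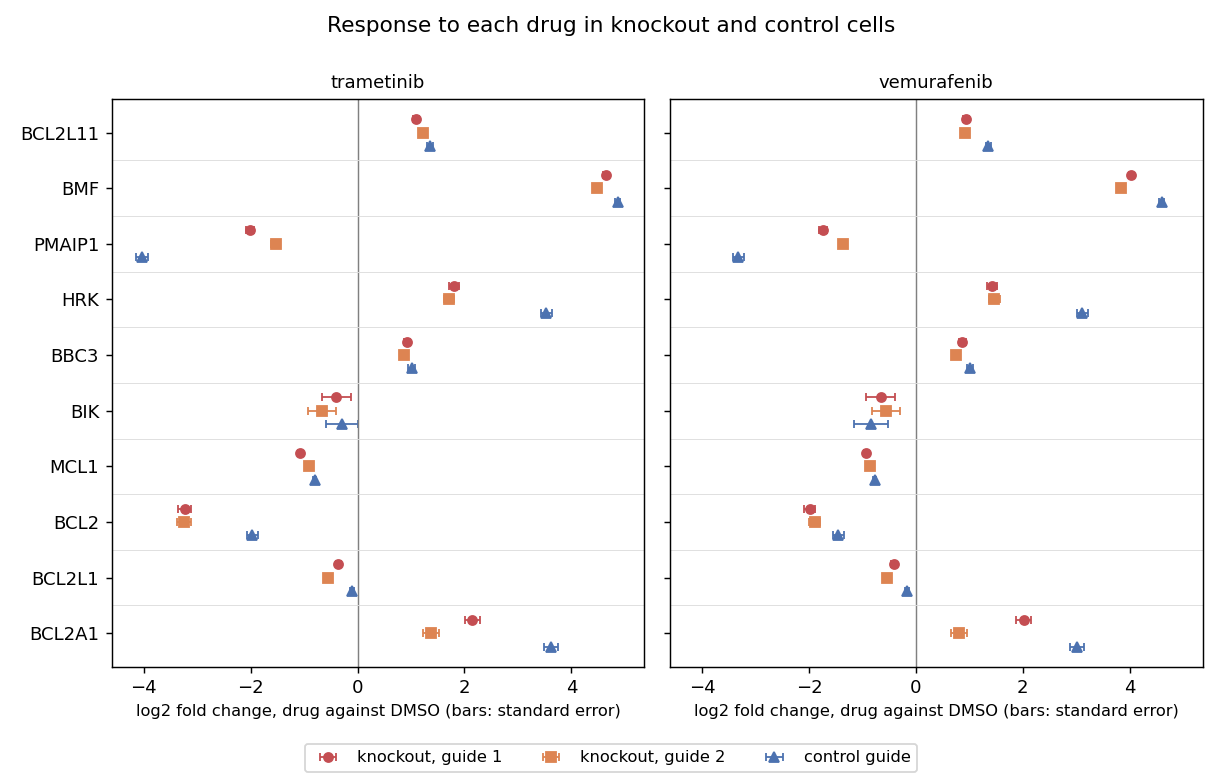
Log2 fold change of each gene with trametinib or vemurafenib against DMSO in guide 1, guide 2 and control cells (points, with standard errors as bars). PMAIP1 fell less in knockout cells (-1.77 averaged over guides with trametinib) than in control cells (-4.04), and HRK and BCL2A1 rose less.

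Whether the knockout altered a drug response was tested as an interaction, the log2 response in knockout cells less the log2 response in control cells. With trametinib 1 of the 10 genes had a higher value (20.8% of all genes tested) and 7 a lower one (23.2%), so 8 were called, where 43.9% were. With vemurafenib 1 was higher (20%) and 8 lower (22.4%), so 9 were called, where 42.5% were. An interaction of at least 2-fold was called for 4 of them with trametinib (8.98% of all genes) and 3 with vemurafenib (7.83%). The gene with a higher value was PMAIP1. It fell by 1.77 ± 0.055 with trametinib in knockout cells and by 4.04 ± 0.11 in control cells (interaction 2.26 ± 0.13, adjusted p = 9.50e-20), and by 1.55 ± 0.055 and 3.32 ± 0.10 with vemurafenib (interaction 1.78 ± 0.12, adjusted p = 2.61e-17).

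HRK rose by 1.76 ± 0.065 with trametinib in knockout cells and by 3.53 ± 0.096 in control cells (interaction -1.77 ± 0.12, adjusted p = 2.29e-17), and its interaction with vemurafenib was -1.67 ± 0.12 (adjusted p = 3.74e-16). BCL2A1 rose by 1.76 ± 0.098 with trametinib in knockout cells and by 3.62 ± 0.13 in control cells (interaction -1.86 ± 0.17, adjusted p = 2.94e-13), with -1.61 ± 0.17 (adjusted p = 4.36e-11) for vemurafenib. With trametinib the interaction of BCL2A1 was -2.25 ± 0.20 for guide 2 and -1.47 ± 0.20 for guide 1. BMF also rose less in knockout cells, with an interaction of -0.31 ± 0.053 (adjusted p = 3.62e-06) for trametinib and -0.67 ± 0.053 (adjusted p = 5.85e-15) for vemurafenib.

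BCL2L11 had an interaction of -0.20 ± 0.061 (adjusted p = 0.00645) with trametinib, where guide 2 alone was not called (-0.13 ± 0.071, adjusted p = 0.134), and of -0.43 ± 0.061 (adjusted p = 7.51e-08) with vemurafenib. BBC3 was not called with trametinib (-0.12 ± 0.076, adjusted p = 0.213). With vemurafenib it was lower (-0.20 ± 0.077, adjusted p = 0.0280), called with guide 2 alone (adjusted p = 0.0114) and not with guide 1 alone (adjusted p = 0.243). That joint call was lost without control DMSO replicate 1 (-0.13, adjusted p = 0.211), control vemurafenib replicate 2 or 3 or guide 2 DMSO replicate 3 (adjusted p between 0.0562 and 0.0779). BIK was called with neither drug (-0.24 ± 0.36 with trametinib, 0.23 ± 0.37 with vemurafenib).

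BCL2, MCL1 and BCL2L1 fell further in knockout cells. BCL2 fell by 3.24 ± 0.085 with trametinib in knockout cells and by 1.97 ± 0.10 in control cells (interaction -1.27 ± 0.14, adjusted p = 7.20e-11), and its interaction with vemurafenib was -0.49 ± 0.13 (adjusted p = 0.00131). MCL1 had -0.19 ± 0.036 (adjusted p = 1.66e-05) with trametinib and -0.13 ± 0.036 (adjusted p = 0.00290) with vemurafenib, where guide 2 alone was not called (-0.087 ± 0.042, adjusted p = 0.0928). BCL2L1 had -0.35 ± 0.054 (adjusted p = 3.46e-07) with trametinib and -0.31 ± 0.054 (adjusted p = 4.39e-06) with vemurafenib. It started higher in knockout cells and ended nearer to control under the drugs.

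The knockout populations differed from each other as well. In guide 2 cells, relative to guide 1 cells, 4 of the 10 genes were called in DMSO (11.9% of all genes, 2 higher and 2 lower, where 4.64% and 7.29% were), 6 in trametinib (19.7% of all genes, 2 higher and 4 lower, where 10.8% and 8.91% were) and 5 in vemurafenib (16% of all genes, 1 higher and 4 lower, where 7.12% and 8.85% were). HRK was lower with guide 2 in trametinib (-0.56 ± 0.079), vemurafenib (-0.42 ± 0.083) and DMSO (-0.46 ± 0.11), as was MCL1 (-0.13 ± 0.030, -0.21 ± 0.030 and -0.30 ± 0.029). BCL2A1 was lower with guide 2 in trametinib (-0.80 ± 0.12, adjusted p = 4.26e-07) and vemurafenib (-1.23 ± 0.12, adjusted p = 4.23e-11). PMAIP1 was higher with guide 2 in trametinib (0.63 ± 0.083, adjusted p = 4.87e-08) and vemurafenib (0.54 ± 0.082, adjusted p = 1.37e-06). In both drugs guide 2 cells were thus the farther from control for HRK, BCL2A1 and PMAIP1.

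Smaller guide differences were called as well, and some of these calls were lost without 1 library. In DMSO BCL2L1 (0.17 ± 0.043, adjusted p = 0.00288) and BBC3 (0.22 ± 0.064, adjusted p = 0.0166) were higher with guide 2, and the BBC3 call was lost without guide 1 replicate 1 or 3 or guide 2 replicate 3 (adjusted p between 0.0584 and 0.158). BMF was lower with guide 2 in vemurafenib (-0.13 ± 0.033, adjusted p = 0.00474) and trametinib (-0.095 ± 0.033, adjusted p = 0.0307), the second lost without guide 1 replicate 2 or 3 or guide 2 replicate 1 or 2 (adjusted p between 0.0565 and 0.220). BCL2L11 was higher with guide 2 in trametinib (0.16 ± 0.047, adjusted p = 0.0105), a call lost without guide 1 replicate 3 or guide 2 replicate 1 (adjusted p between 0.0684 and 0.105).

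To set the genes beside each other, CPM was divided by the length of all annotated exons of a gene in kb. That length joins the exons of all annotated transcripts, whether in use or not, and the order and sums below depend on it. Of the exon bases of BCL2L1, 1424 are shared with ABALON, whose reads cannot be told apart there. MCL1 had the highest level per length in all 9 groups, between 54.6 ± 0.95 CPM per kb in guide 2 cells with trametinib and 136 ± 2.4 in control cells with DMSO. In DMSO BCL2L1 came next, at 16.8 ± 0.53 with guide 1, 18.9 ± 0.49 with guide 2 and 12.2 ± 0.27 CPM per kb in control cells, followed by PMAIP1, BBC3, BCL2L11 and BMF in that order. In all 6 drug-treated groups BMF was next to MCL1, at 32.3 ± 0.82 with guide 1, 30.3 ± 1.0 with guide 2 and 47.3 ± 0.87 CPM per kb in control cells with trametinib, and BCL2L1 followed it. Libraries of BMF overlapped with those of BIK, its neighbour in the order, in guide 2 cells with DMSO.

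In control cells with trametinib BCL2A1, at 10.2 ± 0.60 CPM per kb, came just after BCL2L1, at 11.4 ± 0.50, without overlap. PMAIP1 had 2.92 ± 0.32 with guide 1 and 4.52 ± 0.087 CPM per kb with guide 2, against 0.438 ± 0.11 in control cells with trametinib, where it overlapped with BIK (0.472 ± 0.10). With guide 2 it overlapped with BCL2L11 (4.62 ± 0.20). BCL2 was the lowest of the 10 in all 4 drug-treated knockout groups and in control cells with trametinib, and HRK in all 3 DMSO groups.

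The 6 BH3-only genes summed to 47.8 ± 0.78 CPM per kb with guide 1 and 48.1 ± 1.1 with guide 2, against 62.1 ± 0.70 in control cells with trametinib (SD, n = 3 each). With vemurafenib they summed to 36.0 ± 0.20 with guide 1 and 36.2 ± 0.20 with guide 2, against 53.4 ± 0.61 in control cells. With DMSO they summed to 19.6 ± 0.44 with guide 1 and 21.7 ± 0.30 with guide 2, against 14.5 ± 0.38 in control cells. Knockout libraries were thus above control libraries without drug and below them with either drug. With DMSO PMAIP1 alone had 11.7 CPM per kb with guide 1 and 13.1 with guide 2, against 7.13 in control cells. BMF made up 67.7% ± 0.65 of the sum with guide 1 and 63.0% ± 0.80 with guide 2, against 76.3% ± 0.59 in control cells with trametinib. With vemurafenib its share was 58.6% with guide 1 and 53.4% with guide 2, against 73.5% in control cells. BMF alone had 32.3 CPM per kb with guide 1 and 30.3 with guide 2, against 47.3 in control cells with trametinib. Its vemurafenib levels were 21.1 and 19.3, against 39.3. With either drug the means of BMF lay further apart than those of the sum, so the rest of the sum was not lower in knockout cells. The DMSO means of PMAIP1 lay less far apart than those of the sum, so the DMSO order did not rest on PMAIP1 alone. Sums without BMF or PMAIP1 were not tested.

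The 4 pro-survival genes summed to 76.3 ± 0.34 CPM per kb with guide 1 and 69.7 ± 1.1 with guide 2, against 99.7 ± 1.1 in control cells with trametinib. With vemurafenib the sums were 81.7 ± 2.1 with guide 1 and 71.3 ± 1.5 with guide 2, against 97.6 ± 3.3 in control cells, and with DMSO 144 ± 1.2 and 123 ± 1.6, against 149.9 ± 2.7. Knockout libraries were below control libraries in all 3 treatments, in sums of which MCL1 made up most. MCL1 held 87.2% ± 0.23 of the sum with guide 1 and 83.3% ± 0.22 with guide 2, against 90.6% ± 0.16 in control cells with DMSO. Without MCL1 the order was the other way round in DMSO, where the remaining 3 genes summed to 18.5 ± 0.43 CPM per kb with guide 1 and 20.6 ± 0.43 with guide 2, against 14.1 ± 0.35 in control cells. With trametinib they summed to 16.7 ± 0.48 with guide 1 and 15.1 ± 0.28 with guide 2, against 21.9 ± 1.1 in control cells, and with vemurafenib to 16.0 ± 0.54 and 14.7 ± 1.0, against 18.0 ± 0.24. Knockout libraries were then above control libraries with DMSO and below them with either drug. BCL2A1 alone had 3.55 CPM per kb with guide 1 and 2.05 with guide 2, against 10.2 in control cells with trametinib. Its vemurafenib levels were 3.24 and 1.37, against 6.74. With either drug the means of BCL2A1 lay further apart than those of this sum, so BCL2 and BCL2L1 together were not lower in knockout cells. In control cells the sum without MCL1 was higher with either drug than with DMSO, whereas the sum of all 4 was lower. Of the 3 genes without MCL1 only BCL2A1 rose, while BCL2 and BCL2L1 fell. BCL2A1 had 10.2 CPM per kb with trametinib and 6.74 with vemurafenib, against 0.830 with DMSO. These sums are of transcripts, carry no test and do not weigh the proteins.

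**Figure D4:**
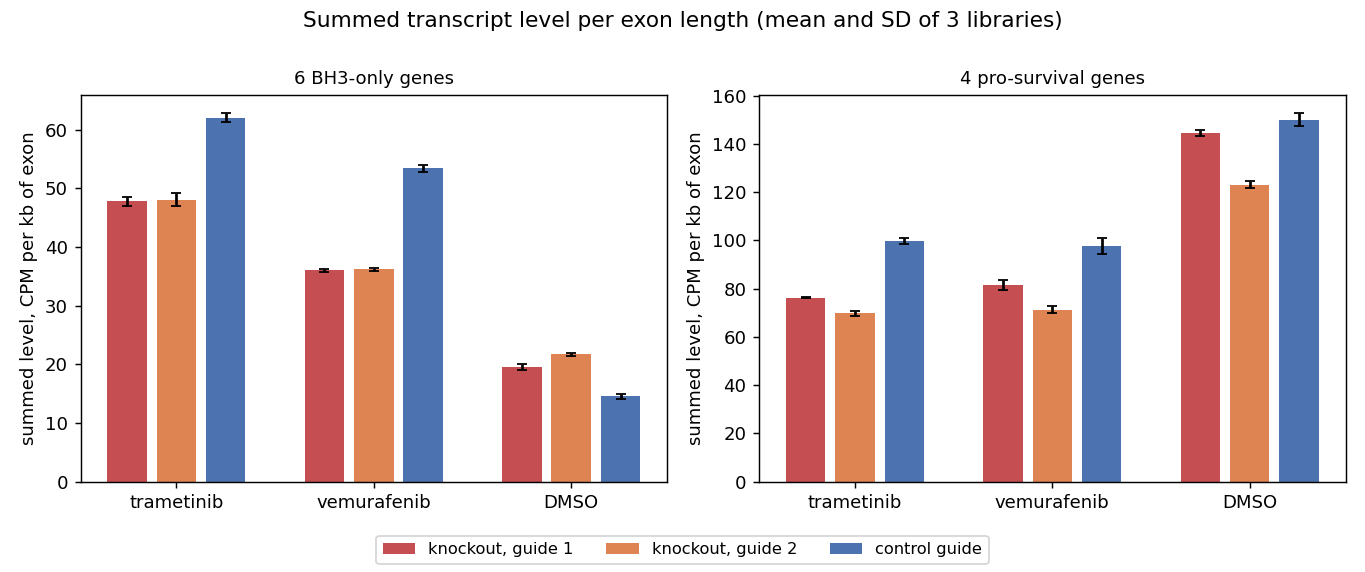
Summed level in CPM per kb of exon of the 6 BH3-only genes and of the 4 pro-survival genes, by treatment and cell population (bars, mean and SD of 3 libraries, from 0). The BH3-only sum of control cells was the lowest of the populations with DMSO and the highest with either drug. BMF made up 76.3% of it with trametinib and 73.5% with vemurafenib, and the drug order did not hold without BMF.

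The genes most like each member were sought among 4466 protein-coding genes by Pearson's r of mean log2-CPM over the 9 groups, as a description in which groups share guides and treatments. BMF was most like RHOBTB3 (r = 0.998), CYP27A1 (0.996) and TBX6 (0.996). BCL2L11 was most like ZFP14 (0.992), CES3 (0.992) and, as BMF was, RHOBTB3 (0.992). PMAIP1 was most like TRABD2A (0.998), TNFRSF1B (0.996) and CTDSPL (0.995), and HRK like SYT11 (0.997), TMEM198 (0.997) and DDR1 (0.996). The nearest gene was ACACB for BBC3 (0.995), NRIP3 for BIK (0.990), DNAJB11 for MCL1 (0.996), ETV1 for BCL2 (0.989), PDE2A for BCL2L1 (0.993) and FAM151B for BCL2A1 (0.994). TNFRSF1B, a receptor for TNF, averaged 3.50 CPM with guide 1 and 4.89 CPM with guide 2, against 0.646 CPM in control cells with trametinib.

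Of 14 transcription factors known to act on these genes, 7 rose and 6 fell with trametinib in control cells, where 36.4% of all genes rose and 32.5% fell. With vemurafenib 8 rose and 4 fell, where 35.7% of all genes rose and 31.6% fell. JUN, a subunit of AP-1, rose by 6.00 ± 0.046 with trametinib and 5.47 ± 0.045 with vemurafenib. FOXO3, which activates BCL2L11 and BBC3, rose by 1.63 ± 0.035 with trametinib and 1.51 ± 0.035 with vemurafenib, and FOXO4 by 1.16 ± 0.043 with trametinib and 1.18 ± 0.043 with vemurafenib. MITF, the main regulator of melanocytes, rose by 0.83 ± 0.034 with trametinib and 0.91 ± 0.034 with vemurafenib, and DDIT3, the stress factor CHOP, by 0.88 ± 0.070 with trametinib and 0.81 ± 0.070 with vemurafenib. E2F1 changed by -4.50 ± 0.082 with trametinib and -4.34 ± 0.080 with vemurafenib, MYC by -4.07 ± 0.11 with trametinib and -2.74 ± 0.098 with vemurafenib and TP73 by -2.17 ± 0.11 with trametinib and -2.26 ± 0.11 with vemurafenib.

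In knockout relative to control cells in trametinib 1 of the 14 factors was higher and 10 were lower, where 27.1% of all genes were higher and 28.8% lower, and the median change was -0.28, against -0.019 over all genes. In vemurafenib 1 was higher and 11 were lower, where 27.3% and 28.3% of all genes were, and the median was -0.34, against -0.015 over all genes. JUN averaged 208 ± 3.0 CPM with guide 1 and 94.7 ± 2.2 CPM with guide 2, against 611 ± 22 CPM in control cells with trametinib, a change of -2.12 ± 0.029, and it changed by -2.28 ± 0.029 in vemurafenib. MITF changed by -0.65 ± 0.028 in trametinib and -0.70 ± 0.028 in vemurafenib, ATF4 by -0.53 ± 0.027 in trametinib and -0.63 ± 0.027 in vemurafenib, FOXO3 by -0.29 ± 0.029 in trametinib and -0.35 ± 0.029 in vemurafenib, FOXO1 by -0.20 ± 0.039 in trametinib and -0.34 ± 0.038 in vemurafenib and MYC by -0.39 ± 0.13 in trametinib and -0.92 ± 0.10 in vemurafenib. DDIT3 changed by -0.29 ± 0.057 in trametinib and -0.42 ± 0.058 in vemurafenib. The higher factor was E2F1 (0.78 ± 0.089 in trametinib and 0.85 ± 0.086 in vemurafenib). In DMSO 6 factors were higher and 6 lower, where 29.3% and 28.6% of all genes were, with JUN at 0.64 ± 0.045 and MYC at -1.22 ± 0.074.

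Of the other BCL2 family genes, 13 of 14 were tested, and 6 rose and 4 fell with trametinib in control cells, where 36.4% of all genes rose and 32.5% fell. BAX rose by 0.35 ± 0.030, while BAK1, its partner in perforating the membrane, changed by -0.53 ± 0.049. BID, a BH3-only gene whose protein caspase 8 cleaves, changed by -1.07 ± 0.055, BCL2L12 by -1.22 ± 0.071 and BNIP3, linked to mitophagy, by -1.12 ± 0.040. BCL2L13 rose by 0.55 ± 0.033 and BAD, whose protein survival kinases silence, by 0.38 ± 0.065. In knockout cells with DMSO 8 were higher and 2 lower, where 29.3% and 28.6% of all genes were, with BAD at 0.49 ± 0.057, BCL2L2, the gene of BCL-W, at 0.29 ± 0.035 and BNIP3 at -0.72 ± 0.034. In trametinib 4 were higher and 1 lower, so 5 of 13 were called, where 55.9% of all genes were, with BID at 0.43 ± 0.049, BAK1 at 0.25 ± 0.043 and BCL2L2 at -0.24 ± 0.034, and BAX was not called (-0.044 ± 0.025).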

How the data were processed

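The authors deposited raw read counts per gene, whole numbers that were not normalized, for 27 libraries. Per the submitters' processing notes, bcl2fastq, HISAT2 and HTSeq were used with hg38, and the annotation release, strand setting and versions were not given in the sources used here. Identifiers were matched to GENCODE 29. From the counts, CPM was computed with TMM factors (0.866 to 1.09) over genes kept by filterByExpr, and edgeR 4.0.16 in R 4.3.3 was fitted to 9 group means with 18 residual degrees of freedom, with p-values adjusted over 25199 genes. A standard error is the log2 fold change divided by the root of F. Knockout means the average of both guides. Alternatives were DESeq2 1.42.0 (size factors and Wald test), limma 3.58.1 voom, other filters, only the groups compared, a replicate block and leaving out each library. Scripts were tested on simulated data. The members and gene lists were chosen with earlier results of these data known. Named beside the members are TADA2B, the 3 genes most like a member, and list genes by size of change or from a short fixed set, of which some are left out. Libraries of a group differed by more than sampling noise (chi-square per degree of freedom 2.97 to 12.3).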

Additional observations from a re-analysis of the deposited data

Results flagged for a closer look

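The drug response differed between knockout and control cells, by edgeR's test of the interaction, for 8 of the 10 genes with trametinib and 9 with vemurafenib. Of all genes tested, 43.9% were called in that test with trametinib and 42.5% with vemurafenib. On the log2 scale, knockout response minus control response, the trametinib values were 2.26 for PMAIP1, -0.20 for BCL2L11, -0.31 for BMF, -1.77 for HRK, -0.19 for MCL1, -1.27 for BCL2, -0.35 for BCL2L1 and -1.86 for BCL2A1. The vemurafenib values were 1.78 for PMAIP1, -0.43 for BCL2L11, -0.67 for BMF, -1.67 for HRK, -0.13 for MCL1, -0.49 for BCL2, -0.31 for BCL2L1, -1.61 for BCL2A1 and -0.20 for BBC3. The adjusted p was highest for BBC3 with vemurafenib (0.0280) and for BCL2L11 with trametinib (0.00645). Explanations were not tested.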

How the results depend on the processing

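Every count of called members and of called genes stayed within 1.5 times its value under each alternative. Of 140 member results, between 136 and 139 kept direction and side of the threshold under each of the 7 alternative fits. Directions changed for values that were not called. BCL2L11 between vemurafenib and trametinib in control cells was -0.0048 with DESeq2's size factors, -0.0046 with its Wald test, -0.0038 with no low-count filter, -0.0052 with 1 CPM in 3 libraries and -0.0037 with only the groups compared. BCL2L11 between guide 2 and guide 1 in vemurafenib was 0.0019, 0.0020 and 0.0021 with size factors, the Wald test and 1 CPM in 3 libraries. Leaving out 1 library changed the direction of 12 results. Between the drugs in control cells the ranges were -0.041 to 0.039 for BBC3 and -0.029 to 0.024 for BCL2L11, and in knockout cells -0.045 to 0.0042 for BCL2L1 and -0.25 to 0.083 for BIK. For BCL2A1 they were -0.19 to 0.027 for knockout in DMSO. Between the guides they were -0.27 to 0.17 for BCL2A1 and -0.0099 to 0.062 for BCL2L11 in DMSO, -0.30 to 0.044 for BCL2, -0.041 to 0.0085 for BCL2L1 and -0.20 to 0.46 for BIK in trametinib, and -0.047 to 0.17 for BCL2 and -0.028 to 0.024 for BCL2L11 in vemurafenib. Replicate numbers did not pair libraries: over 108 same-numbered pairs the correlation of deviations lay between -0.05 and 0.042. The replicate block changed 1 call, BBC3 between the guides in trametinib (0.15, adjusted p = 0.0433), which was also called in 4 other fits and without guide 2 replicate 1, and not in the reported one (adjusted p = 0.0547). PMAIP1 between the guides in DMSO was called with only the groups compared (0.16, adjusted p = 0.00686). BIK had between 18 and 112 counts in a library, and the causes of these changes were not tested.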

Other observations

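With trametinib in control cells 8 of 14 apoptosome and caspase genes rose and 5 fell, where 36.4% of all genes rose and 32.5% fell, with DIABLO, which relieves caspases of their inhibitors, at 1.24 ± 0.096, CFLAR, an inhibitor of caspase 8, at 1.02 ± 0.047 and CYCS, cytochrome c, at -1.26 ± 0.053. In knockout cells with DMSO 8 were higher and 5 lower, where 29.3% and 28.6% of all genes were, with CASP6 at 0.70 ± 0.046, CASP9 at 0.67 ± 0.042 and APAF1, the scaffold of the apoptosome, at -0.60 ± 0.043. Under drug APAF1 was at -0.62 ± 0.043 in trametinib and -0.54 ± 0.043 in vemurafenib in knockout relative to control cells.

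Of 7 inhibitors of apoptosis 2 were higher and 3 lower in knockout cells with DMSO, so 5 were called, where 57.9% of all genes were, led by BIRC3, a target of NF-kB. Its difference between knockout and control cells was 0.94 ± 0.081 in trametinib, against 2.16 ± 0.088 in DMSO (interaction -1.21 ± 0.12, adjusted p = 4.25e-12). That of XIAP was -0.41 ± 0.045 in trametinib, against 0.36 ± 0.048 in DMSO. Of 9 death receptor genes tested 7 were higher and 1 lower with DMSO, where 29.3% and 28.6% of all genes were. FAS averaged 32.7 ± 0.54 CPM with guide 1 and 34.3 ± 1.3 CPM with guide 2, against 13.3 ± 0.34 CPM in control cells with DMSO, a change of 1.33 ± 0.045, and was at 1.28 ± 0.046 in trametinib and 1.37 ± 0.046 in vemurafenib. TNFRSF10A, a receptor for TRAIL, changed by -2.28 ± 0.059 with trametinib in control cells and was higher in knockout cells in trametinib (1.14 ± 0.055) and vemurafenib (1.36 ± 0.054).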
